A study of Mus musculus with 12 samples.

Results

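The immunity-related GTPases (IRG) described here were 7 genes of the mouse family, Irgm1, Irgm2, Igtp, Iigp1, Ifi47, Tgtp1 and Tgtp2. They were taken by gene identifier from a table of 54232 genes counted in tumour-infiltrating lymphocytes, and all 7 were measured above the limit for testing. The 12 libraries came from NK cells and CD8 T cells that were sorted, 300 cells per library, from subcutaneous tumours of MC38, a mouse colon carcinoma line. Tumours had grown for 8 to 10 days after injection of 1000000 cells per flank, and the mice were 6 to 12 weeks old matched for age and sex and of C57BL/6N background in every group.

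The genotypes compared were wild type (WT), Tyk2-/- mice that lack the kinase (KO), and Tyk2 K923E mice whose TYK2 protein is present but kinase-inactive (KE). With both cell types this gave 6 groups of 2 libraries. Both mutations were carried in all cells of the mutant mice, so every host cell there was mutant, while the same tumour line was injected in all groups. The labels do not say that the libraries of a group came from separate mice, so p-values here measure only the spread between libraries, which may be technical.

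IRG proteins are large GTPases that interferon gamma, and to a lesser degree type I interferon, induces in most mouse cells. The effector members load onto the membrane of vacuoles that hold intracellular parasites and break it, and the regulatory members sit on the cell's own membranes and keep the effectors inactive there. TYK2 is a Janus kinase of the type I interferon receptor and of the interleukin 12 receptor, though not the only kinase of either. Interleukin 12 drives interferon gamma production in NK and T cells, while the interferon gamma receptor itself signals through JAK1 and JAK2. The question behind the comparison was therefore how far a family induced mainly by interferon gamma depends on TYK2, and on its kinase activity, inside a tumour.

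The family is divided by its nucleotide-binding loop, in which the regulatory members have methionine where the effectors have lysine. The codons of this loop are shown because the groups used below rest on it, with the codon that differs in capitals, read from the longest reading frame of the GENCODE M21 transcripts.
Irgm1, Irgm2 and Igtp: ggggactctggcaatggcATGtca
Ifi47: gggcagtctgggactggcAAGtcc
Tgtp1 and Tgtp2: ggggaaacaggcgcagggAAGtcc
Irgm1, Irgm2 and Igtp shared all 24 bases, at codons 83 to 90 of Irgm1 and of Irgm2 and codons 91 to 98 of Igtp. Tgtp1 and Tgtp2 also shared them, at codons 63 to 70, and the reading frame of Iigp1 held lysine at the same place. The reading frames of Tgtp1 and Tgtp2 were both 1248 bases long, differed at 4 bases and encoded the same protein.

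RefSeq start sites for 6 of the 7 genes were found in the promoter table (build GRCm38.p6, 250 bases before to 50 bases after the start), without Iigp1. They were searched on both strands for the core of the interferon-stimulated response element (ISRE), GAAANN followed by GAAA, which type I interferon signalling uses, and for the palindromic gamma-activated site (GAS), TTCNNNGAA, which interferon gamma signalling uses. The stretches that held an ISRE core, with the GAS where one lay close by, are shown 5′ to 3′ on the gene's strand, with motif bases in capitals, because they show which interferon elements the members share.
Irgm1 (chr11:48871423-48871462, minus strand): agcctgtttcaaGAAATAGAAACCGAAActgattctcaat
Irgm2 (chr11:58214890-58214934, plus strand): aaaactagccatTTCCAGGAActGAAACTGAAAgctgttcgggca
Igtp (chr11:58199499-58199543, plus strand): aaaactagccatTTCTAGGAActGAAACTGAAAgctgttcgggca
Tgtp1 (chr11:48992302-48992346, minus strand): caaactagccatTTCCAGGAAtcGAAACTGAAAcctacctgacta
Tgtp2 (chr11:49064261-49064305, minus strand): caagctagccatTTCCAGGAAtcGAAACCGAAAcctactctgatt
Irgm2, Igtp, Tgtp1 and Tgtp2 each held a GAS followed 11 bases later by an ISRE core, and neither motif overlapped the other. Irgm1 held 2 overlapping ISRE cores and no GAS in this window, and the window of Ifi47 held neither motif. Of all 32851 promoter windows, 3.44% held an ISRE core, 8.30% a GAS, and 0.131% both with starts within 20 bases of each other. These are matches of letters, and binding was not measured.

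The 6 genes on chromosome 11 lie in 2 clusters of the GENCODE M21 annotation (build GRCm38). Irgm1 (ENSMUSG00000046879) is at chr11:48861968-48871683 and Tgtp1 (ENSMUSG00000078922) at chr11:48985327-48994172, both on the minus strand, Tgtp2 (ENSMUSG00000078921) at chr11:49057194-49064206 on the minus strand and Ifi47 (ENSMUSG00000078920) at chr11:49076587-49096974 on the plus strand. Igtp (ENSMUSG00000078853, chr11:58199556-58207591) and Irgm2 (ENSMUSG00000069874, chr11:58199618-58222782) overlap on the plus strand and share 162 exon bases, 8.01% of those of Igtp and 4.39% of those of Irgm2, so reads there cannot be assigned to one of them. Ifi47 shares 11.5% of its exon bases with Olfr56 and the pseudogene Gm12188, and Tgtp1 shares 7.90% with Gm12185. The reads were 50 bases long and only uniquely aligned ones were counted. Of the distinct 50-base words of Tgtp1 transcripts, 81.2% also occurred in transcripts of other genes, and of those of Tgtp2 86.6%, so the counts of this pair come from a small part of each transcript and understate both levels. The other 5 members ranged from 0.379% for Irgm1 to 11.8% for Igtp.

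Library totals lay between 10378761 and 14732882 counts, at which 3 counts, the floor used here, stand for 0.218 to 0.276 CPM (counts scaled to an effective library size of 1000000). The defining genes of the sorted populations, Klrb1c and Ncr1 for NK cells and Cd8a and Cd3e for CD8 T cells, separated the cell types: Klrb1c stood at 1066 to 2247 CPM in NK and 1.41 to 5.05 CPM in CD8 libraries, and Cd8a at 2825 to 4086 CPM in CD8 and at most 4.52 CPM in NK libraries. Other markers separated them less: Klrk1, which activated CD8 T cells also express, was at 886 to 1356 CPM in CD8 libraries, and Cd3g was at 14.7 and 52.4 CPM in WT NK libraries, against 17.5 and 116 (KO) and 55.0 and 172 (KE). Tyk2 was at 60.8 and 68.9 CPM in WT NK libraries, against 56.3 and 105 (KO) and 119 and 82.3 (KE). The CD8 T cell values of Tyk2 were 48.3 and 86.1 CPM in WT, against 61.9 and 73.8 (KO) and 58.9 and 46.7 (KE), so it was not absent from the KO libraries and overlapped between WT and KO in both cell types. The table counts the gene as a whole and does not show which exons the reads came from, so Tyk2 gave no check of genotype. The sum of 14 macrophage and monocyte markers was 16594 and 14222 CPM in the WT NK libraries and 7211 in KO NK library 1, against 26.5 to 414 in the other 3 NK libraries and 53.2 to 595 in the 6 CD8 libraries.

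All of these 14 markers were detected in the WT NK and KO NK groups, and 1 of 14 had no count in either library in each of the other 4 groups. The macrophage signal thus moved with genotype in NK cells, where only KO NK library 1 among the mutants had a high sum. The covariate fit given below can therefore hardly separate marker level from genotype there, and its standard errors were wider for Iigp1 and Irgm1. The part of the macrophage signal in the NK results was not otherwise tested. Other marker sums also moved there: 6 NK cell markers summed to 4476 and 5635 CPM in WT and to 6132 to 8492 CPM in the mutant NK libraries, 6 CD8 T cell markers to 65.7 and 112 CPM in WT against 89.3 and 319 (KO) and 225 and 340.3 (KE), and 6 neutrophil markers to 27.5 and 6.94 CPM in WT and at most 0.235 CPM in the mutants. Their part in the NK results was not tested. The macrophage sums of the WT CD8 libraries, at 238 and 219.8 CPM, lay inside the range of the mutant CD8 libraries. Some single markers moved there. With both mutants averaged in CD8 T cells, Itgam, 1 of 14 macrophage markers, was lower at an unadjusted edgeR p under 0.05 (4.35% of all genes lower). At the same limit Mmp8, 1 of 2 neutrophil markers tested, was lower, and Itgax, 1 of 3 dendritic cell markers tested, was higher. Mmp8 rested on 1 WT library, at 21.1 and 0.0726 CPM in WT. DESeq2 called 1 macrophage marker lower (1.27% of all genes lower) and 1 dendritic cell marker higher. Summed neutrophil markers were at 24.2 and 1.81 CPM in WT, against 0.689 and 0.083 (KO) and 0.165 and 1.98 (KE), and Itgax at 2.59 and 0.726 CPM in WT, against 1.38 and 27.9 (KO) and 10.0 and 48.4 (KE). Among stromal markers Dcn, a fibroblast gene, was at 17.4 and 11.9 CPM in WT CD8 T cells, against 0.153 and 0 (KO) and 0 and 0 (KE). Of 4 stromal markers tested, 2 had an unadjusted edgeR p under 0.05 in CD8 T cells, both lower in the mutants (4.35% of all genes), and DESeq2 called 1 (1.27%), while the sums over all 6 stromal markers overlapped, at 31.3 and 104 CPM in WT against 6.12 and 34.4 (KO) and 45.3 and 63.9 (KE). The part of such cells in the CD8 results was not tested. For neutrophil, B cell, tumour and stromal markers, the highest sums in any library were 27.5, 32.5, 94.8 and 296 CPM. Dendritic cell markers summed to 205 to 345 CPM in NK libraries, where nearly all of it was Itgax, and to 18.4 to 80.2 CPM in CD8 libraries. In bulk samples such as these, fewer cells of a type and less RNA per cell cannot be told apart.

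Per kilobase of exon, Ifi47 was the most abundant family member in every library. Ifi47 encodes the effector IRG-47, and its level in WT cells was 473 ± 36.8 RPKM in NK and 589.7 ± 20.5 RPKM in CD8 T cells (CPM per kilobase of exon, mean ± SD, n = 2 libraries). Next came Igtp, the regulator Irgm3, at 146 ± 7.26 and 379.99 ± 5.78 RPKM, and Irgm1, a regulator needed for control of mycobacteria and for lymphocyte survival, at 152 ± 83.0 and 171 ± 59.5 RPKM. Tgtp2 reached 25.9 ± 0.827 and 48.7 ± 16.9 RPKM, and Irgm2 24.3 ± 12.2 and 27.3 ± 5.53 RPKM. Iigp1, at 16.1 ± 17.1 and 13.1 ± 17.1 RPKM, varied more between WT replicates relative to its mean than any other member. Tgtp1 was listed lowest, at 4.27 ± 0.0885 and 11.2 ± 2.83 RPKM, with the limit on unique reads given above.

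Summed over the 7 genes, the family reached 742 and 941 RPKM in the WT NK libraries. The KO NK libraries had 687 and 514, and the KE NK libraries 593 and 517. The CD8 T cell sums were 1303 and 1179 in WT, against 675 and 637 (KO) and 370.4 and 383 (KE). All mutant libraries thus lay under both WT libraries of their cell type, and in CD8 T cells the 3 genotypes did not overlap, with KE lowest. Ifi47 and Igtp together made up most of the sum in every library.

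**Figure D1:**
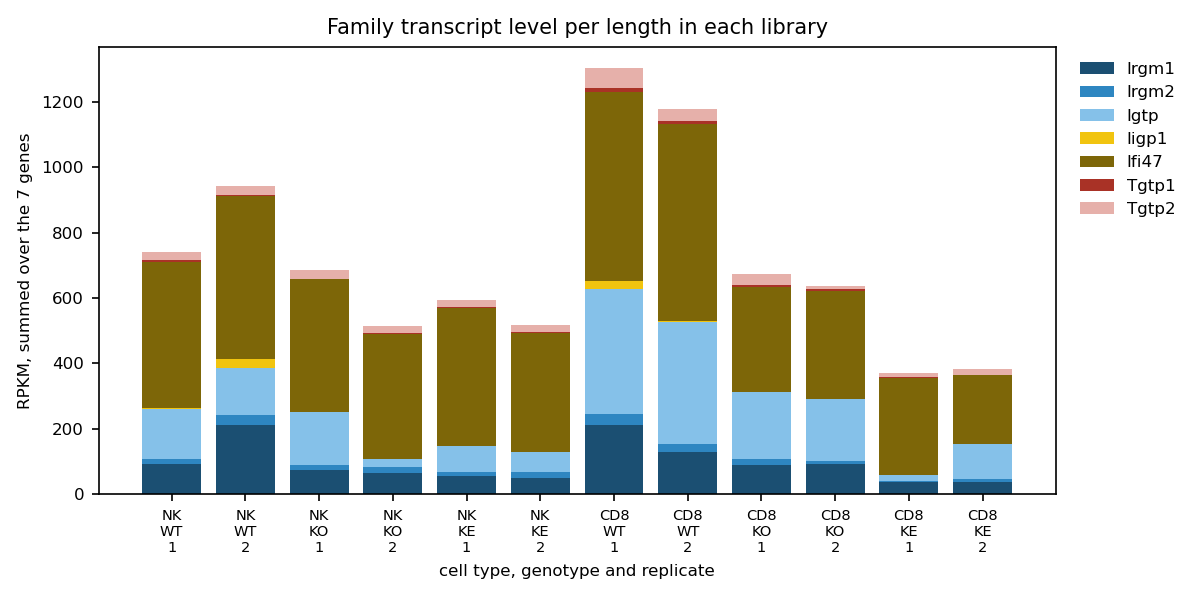
RPKM (CPM per kilobase of exon) summed over the 7 IRG genes, 1 bar per library with each gene as a coloured segment. The WT CD8 bars are the tallest at 1303 and 1179, the KE CD8 bars the lowest at 370.4 and 383, and Ifi47 is the largest segment in all 12 bars.

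The regulatory members Irgm1, Irgm2 and Igtp held 35.1% and 40.9% of the summed RPKM in WT NK cells. This share was 36.7% and 20.9% in KO NK and 24.9% in both KE NK libraries. In CD8 T cells the regulatory share was 48.2% and 44.8% in WT, against 46.5% and 45.6% (KO) and 15.5% and 40.2% (KE). The KE libraries therefore lay below both WT libraries in either cell type, while the KO CD8 libraries fell within the WT range. Ifi47 made up between 44.2% and 80.2% of the sum over the 12 libraries.

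Against WT, all 7 members had a negative fitted log2 fold change in each of the 4 single-mutant comparisons, and the size depended on the member. Over both cell types and both mutants, Iigp1 and Irgm1 were differentially expressed (DEG, an edgeR adjusted p under 0.05 together with a change of 1 or more on the log2 scale in either direction), so 2 of 7 members were called against 0.429% of all 13279 genes tested. DESeq2 called the same 2, against 2.12% of all genes called lower. The median log2 fold change of the members was -1.24, against -0.03 over all genes tested, and -0.78 when the mean log2 CPM of the macrophage markers was added to the fit as a term. An unadjusted p under 0.05 was reached by 6 of 7 members, all lower, against 6.88% of all genes. For 4 members, Irgm1, Iigp1, Ifi47 and Tgtp1, every mutant library lay below both WT libraries of its cell type, against 1.57% of genes. The KO and KE comparisons share their WT libraries, and the averages over both mutants use them too.

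**Figure D2:**
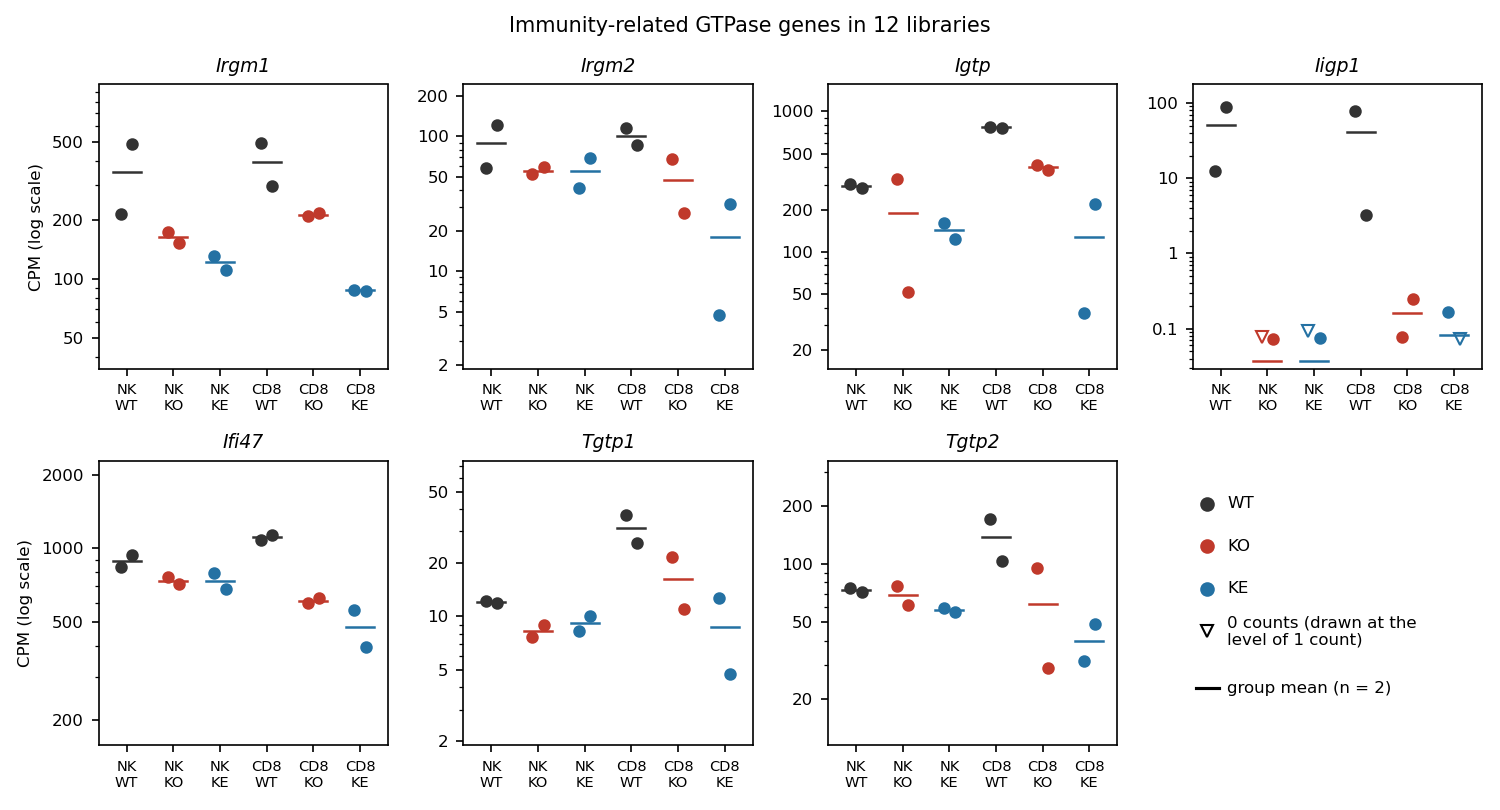
CPM of each IRG gene on a log scale, with 1 point per library (2 per group), a line at the group mean, and open triangles, drawn at the level of 1 count, for libraries with 0 counts. Iigp1 drops from between 3.26 and 88.1 CPM in WT to at most 0.249 in the mutants, while the lowest Ifi47 value of the 12 libraries is 394 CPM.

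Iigp1 (ENSMUSG00000054072) had the greatest change of the 7 genes. It encodes Irga6, an effector that coats the Toxoplasma vacuole, and lies apart from the other members at chr18:60376027-60392634 on the plus strand. Its counts were 148 and 1143 in WT NK libraries, against 0 and 1 (KO) and 0 and 1 (KE). The CD8 T cell counts were 1063 and 45 in WT, against 1 and 3 (KO) and 2 and 0 (KE). All 8 mutant libraries were at or under the floor of 3 counts, and the lowest WT library had 45, so the groups did not overlap although the WT replicates themselves differed widely.

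From the summed counts, Iigp1 was 1364 times higher in WT than in KO NK cells (95% exact Clopper-Pearson interval 244 to 53898) and 1254 times higher than in KE NK cells (225 to 49574). In CD8 T cells the ratios were 255 to KO (99.3 to 938) and 523 to KE (144 to 4324). These ratios depended on the WT library, since NK WT 2 and CD8 WT 1 held most of the WT counts. With NK WT 1 alone the ratios were 326 to KO and 299.9 to KE, and with CD8 WT 2 alone they were 20.5 and 42.0. Without CD8 WT 1, the fitted change of Iigp1 in CD8 T cells was -4.25 in KOvsWT and -5.17 in KEvsWT, against -7.90 and -8.82 with it. These intervals cover counting error only, and amplified reads are not independent molecules. Over both cell types Iigp1 passed the edgeR test, with an adjusted p of 0.0238 and a fitted log2 fold change of -9.19 ± 1.38 (SE) that depends on the default prior count of edgeR. Leaving out NK WT 1, CD8 WT 2 or CD8 KE 1 kept this call, and leaving out any of the other 9 libraries lost it, at edgeR adjusted p of 0.0520 to 0.145. With the macrophage marker term described below for NK cells, the fitted change of Iigp1 was -9.88 ± 3.03 (SE; edgeR adjusted p = 0.804).

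Irgm1 fell less but more evenly. Its level was 215 and 486 CPM in WT NK cells, against 173 and 152 (KO) and 131 and 111 (KE). Its CD8 T cell level was 491 and 297 CPM in WT, against 209 and 216 (KO) and 87.6 and 87.0 (KE). Each mutant library was below both WT libraries of its cell type, and the mutant replicates lay close together while those of WT were spread. Over both cell types the log2 fold change of Irgm1 was -1.43 ± 0.22 (SE), with an edgeR adjusted p of 0.0260. The call held without NK WT 1, NK KO 1 or CD8 WT 2 and was lost without any of the other 9 libraries, at edgeR adjusted p of 0.0520 to 0.164. With the macrophage marker term the change of Irgm1 was -1.42 ± 0.38 (SE; edgeR adjusted p = 0.746).

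Ifi47 was the steadiest gene of the family. In NK cells it stood at 839 and 937 CPM in WT, against 761 and 717 (KO) and 792 and 684 (KE). CD8 T cells had 1081 and 1135 CPM in WT, against 601 and 625 (KO) and 558 and 394 (KE). No mutant library reached a WT library of the same cell type, and the gap was wider in CD8 T cells than in NK cells. Over both cell types its log2 fold change was -0.65 ± 0.12 (SE), with an edgeR adjusted p of 0.0465, below the fold required of a DEG.

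Igtp and Irgm2, the other regulatory members, gave less even values. Igtp was at 306 and 286 CPM in WT NK cells, against 329 and 51.5 (KO) and 161 and 124 (KE). CD8 T cells had Igtp at 777 and 760.1 CPM in WT, against 415 and 382 (KO) and 36.9 and 218 (KE). KO NK library 1 thus lay above both WT libraries, and it is also the KO NK library with the high macrophage marker sum, whereas in CD8 T cells all mutant libraries were below WT. Igtp had an averaged log2 fold change over both cell types of -1.31 ± 0.47 (SE; edgeR adjusted p = 0.373), which became -0.45 with the macrophage marker term (edgeR adjusted p = 1).

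Irgm2, which guards Golgi membranes, was at 57.8 and 122 CPM in WT NK cells, against 52.2 and 59.4 (KO) and 41.4 and 69.5 (KE), so the NK groups overlapped. The CD8 T cell values of Irgm2 were 115 and 86.4 CPM in WT, against 67.5 and 27.1 (KO) and 4.71 and 31.3 (KE), with no overlap between WT and either mutant. The averaged change over both cell types was -1.24 ± 0.48 (SE; edgeR adjusted p = 0.408).

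The twin effectors Tgtp1 and Tgtp2, also known as Irgb6, did not pass the test in any comparison. Tgtp2 was at 74.4 and 71.1 CPM in WT NK cells, against 76.2 and 60.9 (KO) and 59.2 and 56.5 (KE). The CD8 T cell values of Tgtp2 were 170.5 and 103 CPM in WT, against 94.7 and 28.7 (KO) and 31.2 and 48.6 (KE). The mutant CD8 libraries all lay below WT, and in NK cells 1 KO library lay above both WT libraries.

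Tgtp1 was at 12.2 and 11.9 CPM in WT NK cells, against 7.66 and 8.94 (KO) and 8.29 and 10.1 (KE). It was at 37.1 and 25.8 CPM in WT CD8 T cells, against 21.6 and 11.0 (KO) and 12.7 and 4.76 (KE). Averaged over both cell types, the log2 fold changes were -0.84 ± 0.34 for Tgtp2 and -0.93 ± 0.72 for Tgtp1 (SE; edgeR adjusted p = 0.437 and 0.813). With the counts of both genes summed before the fit, the value was -0.85 ± 0.30 (edgeR adjusted p = 0.360).

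In NK cells no member was called in KOvsWT, where 0% of all genes were called, nor by DESeq2 other than Iigp1 (1 of 7, against 1.80% of genes lower). At an unadjusted edgeR p under 0.05, 2 of 7 were lower (3.98% of genes), Irgm1 and Iigp1, and 4 of 7 did not overlap with WT (18.8% of genes). In KEvsWT again no member was called (0% of genes), 2 of 7 had an unadjusted p under 0.05 (3.95%), 6 of 7 did not overlap with WT (19.0%), and DESeq2 called Irgm1 and Iigp1 (1.99%). The median log2 fold change was -0.64 in KOvsWT and -0.69 in KEvsWT, beside -0.01 and 0.00 over all genes. With the macrophage marker term these medians were -0.25 and -0.21, and without NK KE 1 that of KEvsWT was -0.38.

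With both mutants averaged in NK cells, edgeR called none of the 7 (0.0301% of genes) and DESeq2 called 2, Irgm1 and Iigp1 (2.23% of genes lower). An unadjusted p under 0.05 was found for the same 2 of 7 (6.85%), and 4 of 7 had all 4 mutant libraries below both WT libraries (10.8%). Irgm1 changed by -1.32 ± 0.31 on the log2 scale (SE; edgeR adjusted p = 0.212), or by -0.63 without NK WT 2 (edgeR adjusted p = 0.736), and Ifi47 by -0.27 ± 0.17 (adjusted p = 0.733 in the same edgeR fit). When the mean log2 CPM of the macrophage markers was added as a term, the estimate for Irgm1 was -1.31 ± 0.63 (SE), that for Igtp turned to 0.71 and that for Tgtp2 to 0.19, and no member was called.

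**Figure D3:**
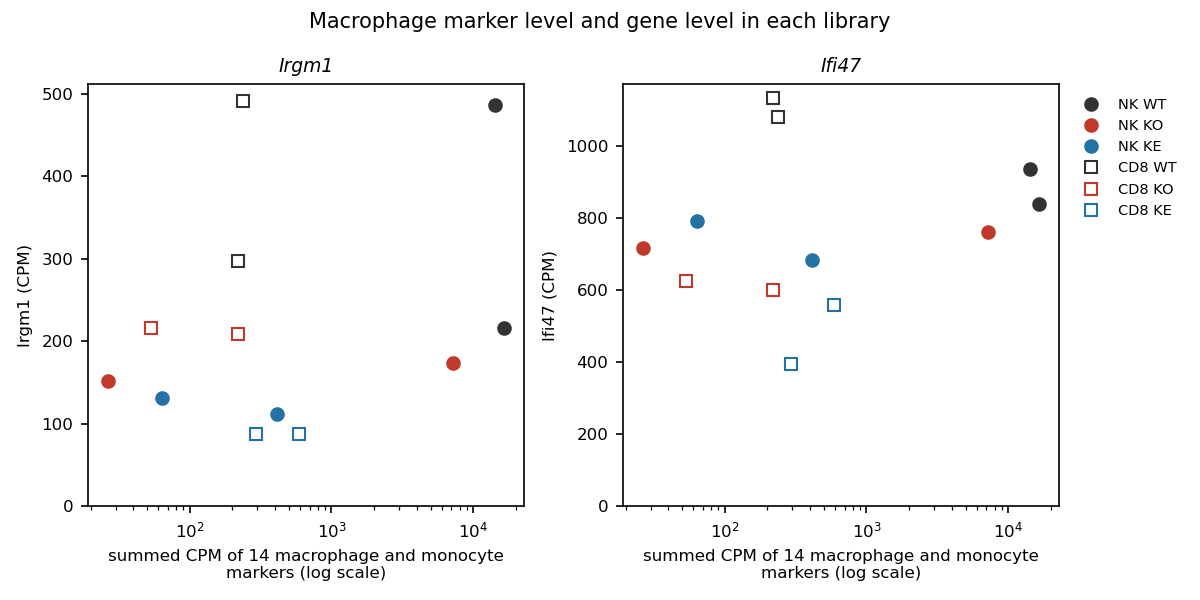
Irgm1 and Ifi47 in CPM (vertical axes from 0) against the summed CPM of 14 macrophage and monocyte markers (log scale), 1 point per library, with NK libraries as filled circles and CD8 libraries as open squares. Both WT NK libraries and KO NK library 1 lie at 7211 CPM of marker or more, while the CD8 libraries of all genotypes lie between 53.2 and 595. Within that range the WT CD8 points are at 297 CPM or more for Irgm1 and 1081 or more for Ifi47, and the mutant points at 216 and 625 or less.

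In CD8 T cells all 7 members lay below both WT libraries in both KO libraries (15.3% of genes did so) and in both KE libraries (16.2%), and hence in all 4 mutant libraries (7.49%). With both mutants averaged, the median log2 fold change was -1.53 against 0.00 over all genes tested, and 6 of 7 members had an unadjusted edgeR p under 0.05 (4.35% of genes lower), the exception being Tgtp1. Ifi47 was called, at -1.04 ± 0.16 (SE) with an edgeR adjusted p of 0.0411, so 1 of 7 members was a DEG against 0.203% of genes. DESeq2 called Irgm1, Iigp1 and Ifi47 (1.27% of genes lower). The edgeR call of Ifi47 was kept without CD8 KE 1 and lost without any of the other 11 libraries, at adjusted p of 0.0616 to 0.317, with the macrophage term (-1.03, edgeR adjusted p = 0.0908) and in a fit of the CD8 libraries alone (-1.04, edgeR adjusted p = 0.347), so the size of the change was about the same in both.

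The fitted changes in CD8 T cells were greater in KEvsWT than in KOvsWT for the 6 members other than Iigp1, for which KO and KE were both at or under the floor. In KOvsWT no member was called by edgeR (0.0527% of genes), 3 of 7 had an unadjusted p under 0.05 (2.54%), Irgm1, Iigp1 and Ifi47, and DESeq2 called Iigp1 (0.881%). In KEvsWT no member was called by edgeR (0.0828% of genes), 6 of 7 had an unadjusted p under 0.05 (3.02%), and DESeq2 called Irgm1, Igtp, Iigp1 and Ifi47 (1.42%). The medians were -0.95 in KOvsWT (-1.51 without CD8 KO 1) and -2.17 in KEvsWT. Without CD8 KO 1 the order of KO and KE also turned for Tgtp2, at -2.25 in KOvsWT and -1.78 in KEvsWT. For Irgm1 the log2 fold changes were -0.89 ± 0.38 (-0.48 without CD8 WT 1) and -2.17 ± 0.39, for Igtp -0.95 ± 0.80 and -2.59 ± 0.84 (the latter -1.82 without CD8 KE 1 and -4.38 without CD8 KE 2), and for Ifi47 -0.85 ± 0.20 and -1.22 ± 0.20 (SE).

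**Figure D4:**
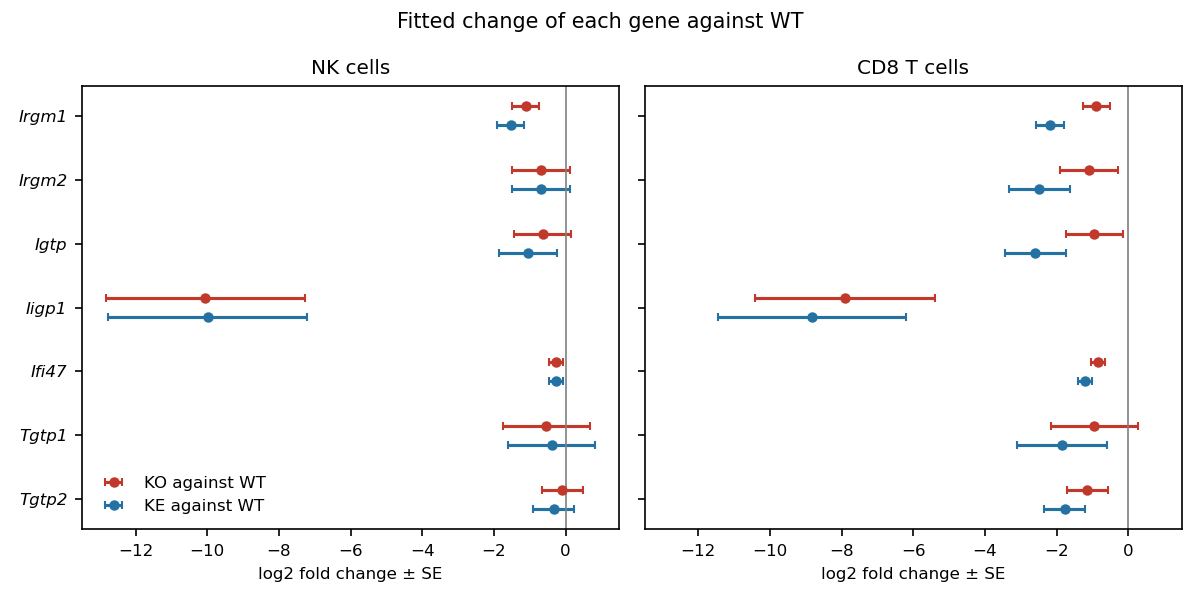
Fitted log2 fold change against WT with its standard error for each IRG gene, KO in red and KE in blue, in NK cells (left) and CD8 T cells (right). All 28 estimates are below 0, those of Iigp1 are set apart at -7.90 or lower, and in CD8 T cells the KE estimate is lower than the KO estimate for the 6 genes other than Iigp1, whose KO and KE counts are too low to be ordered.

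Compared directly in CD8 T cells, KO was above KE by the fitted values for the 6 members other than Iigp1, whose counts in both groups were at or under the floor. Irgm1 differed by 1.28 ± 0.38 (SE) at an unadjusted edgeR p of 0.00664, the only 1 of 7 under 0.05 (3.62% of genes in either direction), and its edgeR adjusted p was 1. Igtp differed by 1.64 ± 0.81 (SE), or by 0.87 without CD8 KE 1 and 3.43 without CD8 KE 2. For 3 of 7 members, Irgm1, Igtp and Ifi47, both KO libraries lay above both KE libraries (15.1% of genes). No member was a DEG in KOvsKE in CD8 T cells (0% of genes by edgeR, 1.14% by DESeq2).

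In NK cells KOvsKE gave no DEG among the members (0% of genes by edgeR, 1.49% by DESeq2) and none with an unadjusted p under 0.05 (3.80%), and the 7 differences lay between -0.15 and 0.42. For Irgm1 the difference was 0.42 ± 0.37 (SE).

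The averaged mutant effect was compared between the cell types by an interaction term. For 6 of 7 members the estimate was less negative in NK than in CD8 T cells, with a median difference of 0.92. No member was called (0.0151% of genes by edgeR, 1.87% by DESeq2), and 1 of 7, Ifi47, had an unadjusted p under 0.05 (5.70% of genes), with a difference of 0.77 ± 0.24 (SE; edgeR adjusted p = 0.777). The cell types were thus not shown to differ in how far the mutations lowered the family.

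In WT cells, 4 of 7 members, Igtp, Ifi47, Tgtp1 and Tgtp2, were lower in both NK libraries than in both CD8 libraries (19.5% of genes). No member was called between the WT cell types (0.776% of genes by edgeR, 6.05% by DESeq2), and none had an unadjusted p under 0.05 (10.2%). The greatest fitted differences were those of Tgtp1, at -1.39 ± 1.23, and Igtp, at -1.38 ± 0.81 on the log2 scale (SE; edgeR adjusted p = 0.762 and 0.567). The Igtp difference was -3.15 with the macrophage marker term. The replicate block had its own term in each cell type, so its value of -0.48 compares only fitted levels of replicate 1. It is not a difference within replicates, since WT Igtp was at 306 and 286 CPM in NK and 777 and 760.1 CPM in CD8 libraries.

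By group mean CPM, WT CD8 T cells ranked highest for 6 members and WT NK cells for Iigp1. KE CD8 T cells ranked lowest for Irgm1, Irgm2, Igtp, Ifi47 and Tgtp2, and KO NK cells for Tgtp1, while the mutant groups of Iigp1 all lay at or under the floor and have no order. Of 35 pairs of neighbouring groups in these orders, 14 had no overlap between their libraries, against 14.1% of such pairs over all genes tested. For Ifi47 4 of 5 neighbours were free of overlap, the exception being KO and KE NK cells, and 0.557% of all genes had 4 or more such pairs. For Irgm1 the lower 4 groups, KO CD8, KO NK, KE NK and KE CD8 in falling order, had no overlap between neighbours, and for Irgm2 all 5 pairs of neighbours overlapped. With 2 libraries per group, these orders are a description.

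Of 10 further family members, 7 were tested, and edgeR called none of them in any comparison with WT. Over both cell types and mutants 3 of 7 had an unadjusted edgeR p under 0.05, all lower (6.88% of all genes), DESeq2 called 1 lower (2.12%), and the median of the 7 was -1.58. Irgq, named after its values were seen, went the other way at 6.32 ± 2.84 (SE; edgeR adjusted p = 0.509). Its NK counts were 0 and 0 in WT, against 31 and 0 (KO) and 273 and 263 (KE). Gm12250, also named Irgb10, an effector that attacks bacterial membranes, was at 112 and 123 CPM in WT CD8 T cells, 35.3 and 34.3 in KO and 8.27 and 15.6 in KE. Its averaged log2 fold change there was -2.53 ± 0.46 (SE; edgeR adjusted p = 0.0836). The annotated exon of Gm12250 covers 1274 bases and is classed as a processed pseudogene in GENCODE M21, although RefSeq lists a protein-coding gene. In NK cells Gm12250 was at 68.9 and 126 CPM in WT, against 78.3 and 39.2 (KO) and 50.7 and 82.8 (KE), and the groups overlapped. 9930111J21Rik2, which shares 59.8% of its 50-base words with other genes, was at 38.2 and 43.6 CPM in WT CD8 T cells, against 28.2 and 36.6 (KO) and 13.8 and 11.6 (KE).

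The same comparison was read across neighbouring interferon-induced families. Of 13 antiviral interferon-stimulated genes (ISG), induced chiefly by type I interferon, 3 were called lower over both cell types and mutants (0.429% of all genes in either direction), 11 by DESeq2 (2.12%), and 12 had an unadjusted edgeR p under 0.05 (6.88%), with a median log2 fold change of -4.71. Those called by edgeR were Irf7, the transcription factor that amplifies interferon expression (-2.45 ± 0.38), Ifit2, which restricts viral translation (-3.10 ± 0.51), and Usp18, which removes ISG15 and damps receptor signalling (-4.71 ± 0.76), with edgeR adjusted p of 0.0254, 0.0330 and 0.0314. Of 10 guanylate-binding proteins tested among 11, a GTPase family that acts together with IRG proteins on vacuoles, Gbp9 was called (-1.78 ± 0.29, edgeR adjusted p = 0.0314) and the median was -0.81. An unadjusted edgeR p under 0.05 was reached by 7 of the 10 (6.88% of all genes), and DESeq2 called 3 (2.12%). The most abundant genes of these lists beside Irf7 and Gbp7 were Rtp4, at 6.59 to 395 CPM, and Gbp4, at 112 to 855 CPM over the 12 libraries. Gbp7 was called in the averaged CD8 comparison (-1.48 ± 0.24, edgeR adjusted p = 0.0487), and its difference from the NK effect was not called (1.46, edgeR adjusted p = 0.521). The IRG median was -1.24, or -0.78 with the macrophage marker term, which was not fitted for the other lists, and the differences between lists were not tested.

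**Figure D5:**
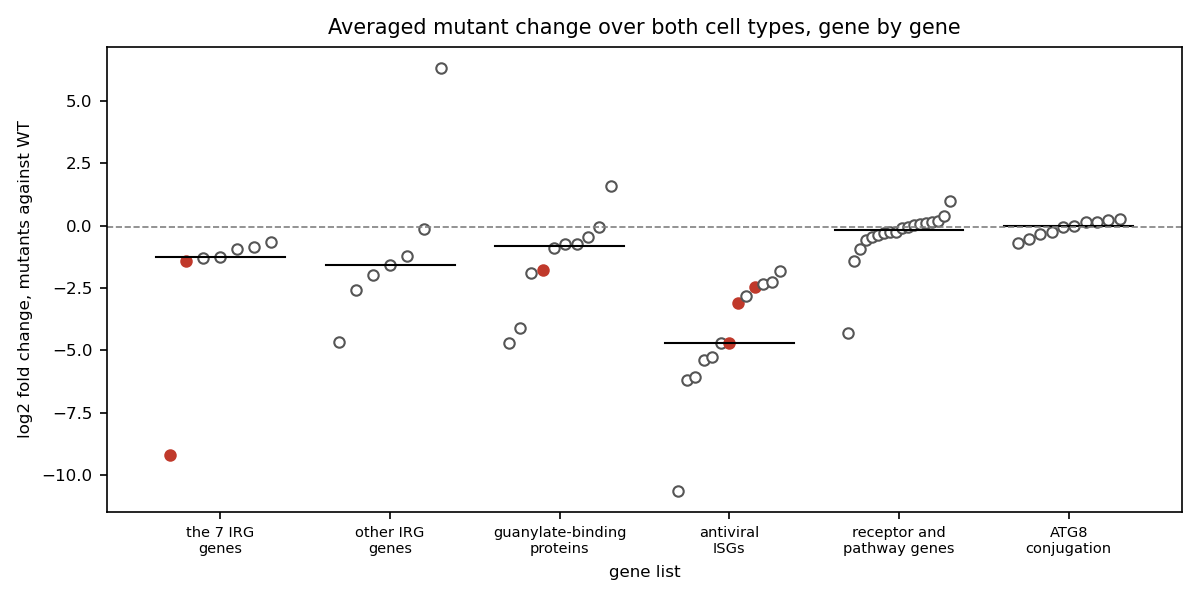
Log2 fold change of both mutants averaged against WT over both cell types, 1 point per tested gene and 1 column per gene list, with filled red points for DEG, black lines at list medians and a dashed line at the median of all genes tested. The medians are -1.24 for the IRG genes, -0.81 for the guanylate-binding proteins and -4.71 for the antiviral ISG, and that of the ATG8 conjugation genes is -0.03.

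Of 18 genes upstream of the family (interferon gamma, receptors, kinases, transcription factors, feedback inhibitors and phosphatases), none was called over both cell types. An unadjusted edgeR p under 0.05 was reached by 4 that were lower (6.88% of all genes) and by Ifng, which was higher (3.04% of all genes) at 0.99 ± 0.44 (SE; edgeR adjusted p = 0.493). DESeq2 called 1 of the 18 lower (2.12%), and the median was -0.17. Ifngr1, the ligand-binding chain of the interferon gamma receptor, was at 1973 and 2348 CPM in WT CD8 T cells, against 1522 and 1519 (KO) and 1520.2 and 1603 (KE). The mutant libraries lay below WT there, by a log2 fold change of -0.49 ± 0.15 (SE; edgeR adjusted p = 0.570, unadjusted 0.00868), while in NK cells Ifngr1 ranged from 2313 to 3148 CPM and the groups overlapped. The 4 lower genes were Ifngr1, Ifngr2, Stat2 and Irf9, the last 3 named after their values were seen. Stat2 and Irf9 belong to the transcription factor complex that type I interferon activates. Stat2 was at 181 and 124 CPM in WT CD8 T cells, against 29.9 and 40.8 (KO) and 7.19 and 39.3 (KE), with overlap in NK cells, and its change over both cell types was -1.41 ± 0.45 (SE; edgeR adjusted p = 0.315). Irf9 was at 88.2 and 286 CPM in WT CD8 T cells, against 106 and 73.3 (KO) and 104 and 98.0 (KE), where the groups overlapped, and changed by -0.94 ± 0.31 over both cell types (SE; edgeR adjusted p = 0.328). Ifngr2, the other chain of the interferon gamma receptor, had 307 and 1481 counts in WT NK libraries, against 252 and 1 (KO) and 1 and 3 (KE), and 0 to 33 counts in the CD8 libraries. Its change over both cell types was -4.30 ± 1.30 (SE; edgeR adjusted p = 0.273), and its 3 highest libraries were the 3 with the high macrophage marker sums, whose part in it was not tested. Jak1, the kinase bound to Ifngr1, ranged from 524 to 1586 CPM over the 12 libraries. Of 10 genes of the ATG8 conjugation system, which delivers IRG proteins to vacuoles, none was called by edgeR or DESeq2, 1 was lower at an unadjusted edgeR p under 0.05 (6.88% of all genes), and the median was -0.03. Its most abundant genes, Gabarap and Map1lc3b, lay between 318 and 582 CPM and between 119 and 199.7 CPM.

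The profile of the family, the mean log2 CPM of the 7 members in each library, was compared with 13161 genes outside all lists over the 12 libraries. Among the 5 genes with the highest Pearson r, which ran from 0.877 to 0.901, were Zfp661, Mgarp, Trdv1 and Gm38115. Their mean levels were 2.84 to 5.09 CPM, so each rests on few counts, and the 12 points share genotype and library preparation.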

How the data were processed

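RNA of 300 sorted cells per library was amplified by Smart-seq2. Per the study's methods and the submitters' notes, the authors used Trimmomatic for the 50-base reads, STAR for alignment to GRCm38 (mm10), and counts of uniquely aligned reads over exons. The mode and strand setting of counting are not given in the sources used here. The deposited values are raw counts per gene. Gene symbols came from GENCODE M21, and 153 identifiers had none. Genes with a mean TMM-normalized count of at least 10 entered the tests (13279), run in edgeR 4.0.16 (R 4.3.3) as a robust quasi-likelihood test with 1 mean per group over all 12 libraries, and p-values were adjusted by Benjamini-Hochberg over all genes tested. Each SE was obtained from the fold change and its F statistic. DESeq2 1.42.0 was an alternative. CPM used TMM-scaled library sizes and RPKM the union of exons. A prior count of 2 was used only for log2 CPM values, as in the macrophage marker term and the family profile. The edgeR fold changes used the default prior count of edgeR. The code was run on simulated counts, with a pass rule only at a spread below that of these data. It therefore does not show how the test performs at the spread found here (common biological coefficient of variation 109%).

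The members and all gene lists were chosen with earlier results of these data known. Text names all 7 members, the 2 most abundant genes of each described list and every called gene of a list. Of the 5 genes most alike, 1 is not reported here. All-gene medians and shares stand in for tests of lists. Alternatives were DESeq2 size factors, DESeq2, no filter on low counts, each cell type alone, a replicate block, a macrophage marker term, leaving out each library and summing Tgtp1 with Tgtp2.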

Additional observations from a re-analysis of the deposited data

How the results depend on the processing

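With 2 libraries per group, calls were less stable than directions. Of 889 re-estimates of members against WT, 881 stayed below 0, 36 lost a call and 24 gained one. The 8 exceptions were Igtp and Tgtp2 in NK cells. With the macrophage marker term, Igtp was 0.52 in KOvsWT, 0.90 in KEvsWT and 0.71 averaged, and Tgtp2 was 0.28, 0.11 and 0.19. Leaving out each library in turn gave -2.52 to 0.13 for Igtp and -0.26 to 0.048 for Tgtp2 in KOvsWT, the positive values being those without KO NK library 2.

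Over both cell types 2 members were called, and 0 were called with the replicate block or the macrophage term, 3 with no filter (Igtp added) and 0 to 2 when leaving out each library. In CD8 T cells averaged, 1 member was called, with 3 by DESeq2, 4 with no filter, 0 for the CD8 libraries alone, 0 with the block and 0 with the macrophage term, and 0 to 1 when leaving out each library. In NK cells averaged, 0 were called, with 2 by DESeq2 and 2 with no filter. With no filter, 1 was called in KOvsWT and 2 in KEvsWT in NK cells, 3 in KEvsWT and 1 in KOvsKE in CD8 T cells, and 1 between the WT cell types. The no-filter fit, over 23707 genes, also called more of all genes: 1.70% over both cell types, 1.58% averaged in NK and 0.882% in CD8 T cells, 0.823% and 1.08% in KOvsWT and KEvsWT in NK cells, 0.780% and 0.346% in KEvsWT and KOvsKE in CD8 T cells, and 2.27% between the WT cell types. DESeq2 called 1 in KOvsWT and 2 in KEvsWT of NK cells. For CD8 T cells DESeq2 gave 1 and 4. The cause of these shifts was not tested.

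The replicate numbers are shared by all groups. Deviations of replicate 1 from replicate 2 correlated between compared groups by -0.0205 to 0.0130 over 13279 genes. This gave no sign of pairing but cannot exclude it in libraries that vary this much. Across cell types only the WT groups were checked. The labels do not say whether NK and CD8 libraries came from the same mice, and the fits treat them as independent. With the replicate block, the changes were about as large but not called: -1.38 for Irgm1 and -8.72 for Iigp1 over both cell types and -1.04 for Ifi47 in CD8 T cells (edgeR adjusted p = 0.121, 0.0628 and 0.185). The block changed no other count of called members. Leaving out a library leaves its group with 1, which is assumed to vary like the others.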

Other observations

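Ifng encodes interferon gamma, the main inducer of the family, and was chosen for mention after its values were seen. It was at 205 and 158 CPM in WT CD8 T cells, against 564 and 351 (KO) and 604 and 385 (KE), so that all 4 mutant libraries lay above both WT libraries while all 7 IRG genes lay below. The averaged log2 fold change was 1.39 ± 0.64 (SE; edgeR adjusted p = 0.725). In NK cells Ifng was at 93.3 and 96.4 CPM in WT, against 179.9 and 124 (KO) and 29.9 and 240.3 (KE), and the groups overlapped.

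Gm4951, a further family member that lies near Iigp1, had 49 and 354 counts in the WT NK libraries and 0 or 1 in each of the other 10 libraries, WT CD8 T cells included. NK WT 2 thus held most of its counts. Iigp1, by contrast, had 1291 counts summed over the WT NK libraries and 1108 over the WT CD8 libraries. The WT NK libraries are those with the highest macrophage marker sums, and the part of those cells in the Gm4951 counts was not tested.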
